A study of Homo sapiens with 58 samples.

Results

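Epithelial-mesenchymal transition is the switch by which cells of an epithelial sheet loosen their junctions and take on a motile, matrix-producing state. A small set of DNA-binding factors drives it, TWIST1, ZEB1, SNAI1 and SNAI2, which repress the epithelial cadherin CDH1 and are accompanied by gain of the intermediate filament vimentin (VIM), the neural cadherin CDH2 and the matrix protein fibronectin (FN1). TJP1 encodes ZO-1, a scaffold of tight junctions. In skin, keratinocytes use parts of the same set during wound closure, and several of these genes are read as markers of invasive squamous carcinoma. These 9 genes were chosen by name, with earlier results of these data known. They are 9 of the 19775 genes that the arrays measured with a probe set of 1 gene symbol. They had 22 of the 54675 probe sets, and the probe set with the highest mean over the 58 arrays stood for each gene.

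The arrays came from HaCaT cells, immortalized human skin keratinocytes, and from isogenic lines carrying an added gene. HaCaT-vector held the empty construct, HaCaT-EGFR overexpressed wild-type EGFR, HaCaT-p65 overexpressed RELA, the p65 subunit of NF-kappa-B, and HaCaT-HRAS carried the constitutively active HRAS-VAL12D. Serum cultures gave 5 arrays of HaCaT-EGFR (3 labelled 0 h, 1 labelled 4 h and 1 labelled 8 h) and 3 of every other line. Cells kept without serum and ligand gave 3 arrays of HaCaT-p65, 7 for the EGFR line and 4 for the vector line. EGF was given to starved HaCaT-EGFR (7 arrays, 4 h or 8 h) and starved HaCaT-vector (4 arrays, 4 h), and TNF to HaCaT-p65 (5 arrays, 4 h or 8 h) and HaCaT-vector (3 arrays, 4 h). Inhibitors were added on 8 arrays, all of 1 processing date: gefitinib, which blocks the EGFR kinase, with EGF (2 arrays) or serum (2 arrays) in HaCaT-EGFR, and LY294002, a phosphoinositide 3-kinase inhibitor, or U1026, named here as in the labels, with EGF on 1 array of each of HaCaT-EGFR and HaCaT-vector. The text of the paper lists EGFR, MEK and phosphoinositide 3-kinase as the inhibited targets without naming compounds, which leaves MEK for U1026. HaCaT itself is described as monoclonal in origin. The sources used here do not say whether replicates were separate cultures or whether each line with an added gene is a single clone, so the p-values measure only the spread between these arrays, which may be technical.

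All values are log2 signals, a difference of 1 between them being a doubling, from which the authors had subtracted differences between processing dates. The HRAS probe set was higher in every HaCaT-HRAS array (mean 9.98) than in every HaCaT-vector array in serum (mean 7.57). For EGFR, 2 of 9 probe sets were higher in every HaCaT-EGFR serum array than in every HaCaT-vector serum array, 1 was lower in every HaCaT-EGFR array (mean 9.06 against 9.48), and the probe set with the highest mean had 9.58 and 9.59 in these lines. For RELA, 1 of 2 probe sets did so in HaCaT-p65 (mean 10.24 against 9.97), although HaCaT arrays ran up to 10.21. Of the listed keratinocyte markers all 7 that were measured lay above the array median in the serum groups of HaCaT, HaCaT-vector and HaCaT-HRAS, and KRT14 had 13.33, 13.15 and 10.83 in these.

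Sequence windows before a transcription start were at hand for 5 of the 9 genes, ZEB1, VIM, CDH2, FN1 and TJP1, from RefSeq (GRCh38.p14). Each window held the 250 bases before the start, and 2 motifs were searched on both strands: the E-box CAGGTG, the element that Snail and ZEB factors bind, and the cAMP response element TGACGTCA. The E-box was in 17.5% of 35116 promoters, in 1 of 4 starts of TJP1 and 2 of 7 of ZEB1, and not in those of FN1, VIM or CDH2. The cAMP response element was in 1.65% of promoters and, among these genes, in the single start of FN1. The stretches around the matches in TJP1 and FN1 are shown because these genes moved in opposite directions in HaCaT-HRAS. Both are on the minus strand and written 5′ to 3′ with the motif in capitals, at chr15:29969102-29969167 (88 bases before the TJP1 start) and chr2:215436214-215436281 (183 bases before the FN1 start). A match of letters is a description and no evidence of binding in these cells.
TJP1: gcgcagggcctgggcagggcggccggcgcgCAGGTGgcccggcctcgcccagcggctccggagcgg
FN1: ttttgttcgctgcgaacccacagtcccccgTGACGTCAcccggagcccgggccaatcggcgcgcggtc

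TWIST1 carried the largest change among the 9 genes. TWIST1, a basic helix-loop-helix factor, read 8.51, 8.51 and 8.56 on the 3 HaCaT-HRAS arrays, 5.05, 4.81 and 4.89 on the HaCaT-vector arrays and 5.11, 5.53 and 5.84 on the HaCaT arrays. HaCaT-p65 gave 4.48, 4.22 and 4.75, and HaCaT-EGFR gave 5.86, 5.45 and 5.34 at 0 h, 5.07 at 4 h and 6.03 at 8 h. Every HaCaT-HRAS array therefore lay over 2 log2 units above every other serum array, while the other lines overlapped in part. The difference over HaCaT-vector was 3.61 ± 0.25 (SE), which is 12.2-fold (adjusted p = 4.64e-15). Over HaCaT, HaCaT-EGFR and HaCaT-p65 it was 3.03, 2.97 and 4.04, with adjusted p of 8.26e-13, 1.13e-12 and 1.4e-16. The HaCaT-vector and HaCaT-p65 means (4.92 and 4.48) lay below the array medians of 4.98 to 5.24, so the size of the folds over these lines is uncertain.

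**Figure D1:**
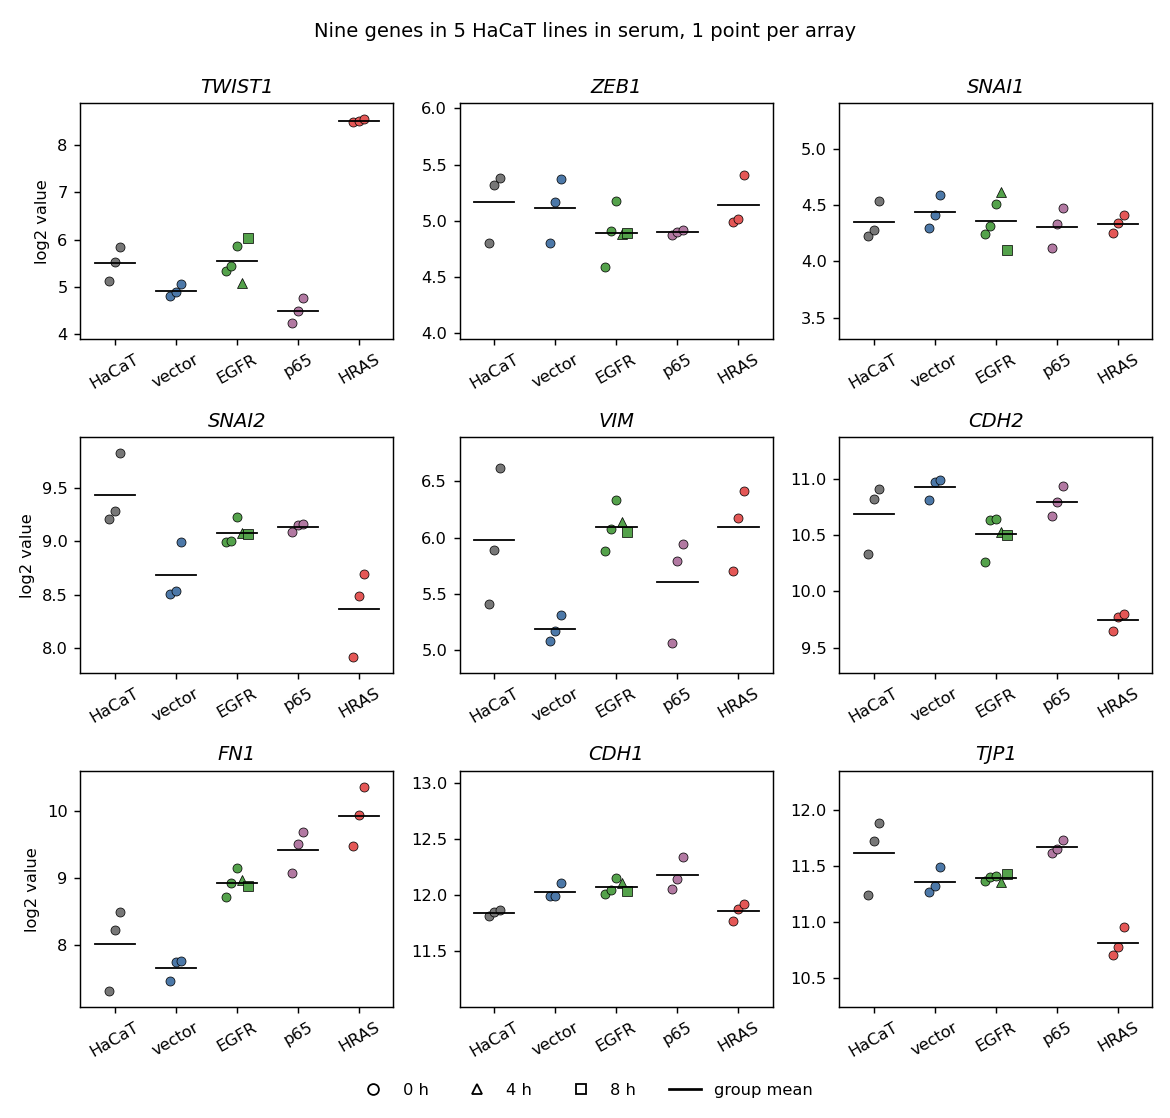
Log2 values of the 9 genes in serum (vertical axes, each spanning at least 2 log2 units) for 5 HaCaT lines, 1 point per array and a line at the group mean, with circles for arrays labelled 0 h, triangles for 4 h and squares for 8 h. TWIST1 sits at 8.52 in HaCaT-HRAS and between 4.48 and 5.55 in the other lines, while ZEB1 and SNAI1 stay within 1 log2 unit.

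Below HaCaT-HRAS, the order of the TWIST1 means was HaCaT-EGFR (5.55), HaCaT (5.49), HaCaT-vector (4.92) and HaCaT-p65 (4.48). Neighbours in that order did not pass the test: the differences were 0.06 for HaCaT-EGFR over HaCaT (95% interval -0.44 to 0.56), -0.58 for HaCaT-vector over HaCaT (-1.08 to -0.08) and -0.43 for HaCaT-p65 over HaCaT-vector (-0.93 to 0.07). HaCaT-p65 fell below HaCaT-EGFR by 1.07 (adjusted p = 0.00238) and below HaCaT by 1.01 (adjusted p = 0.00655). The second of these failed without HaCaT-p65 replicate 2 (-0.88, adjusted p = 0.0623) or without HaCaT replicate 3 (-0.84, adjusted p = 0.0629), and also when those lines were fitted alone (adjusted p = 0.142).

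The other 3 transcription factors of the set did not follow TWIST1. SNAI2, the zinc-finger factor also called Slug, read 8.69, 8.48 and 7.92 in HaCaT-HRAS, 9.00, 8.54 and 8.51 in HaCaT-vector, 9.20, 9.82 and 9.28 in HaCaT, 9.16, 9.15 and 9.09 in HaCaT-p65 and 8.99 to 9.23 (median 9.07) in HaCaT-EGFR. HaCaT-HRAS lay below every array of HaCaT, HaCaT-EGFR and HaCaT-p65 and overlapped HaCaT-vector. It fell by 1.07 against HaCaT (adjusted p = 4.8e-05), by 0.71 against HaCaT-EGFR (adjusted p = 0.00599) and by 0.77 against HaCaT-p65 (adjusted p = 0.00265), and differed by -0.32 from HaCaT-vector (adjusted p = 0.32). Without HaCaT-HRAS replicate 3, the lowest array, the calls against HaCaT-EGFR (-0.49, adjusted p = 0.107) and HaCaT-p65 (-0.55, adjusted p = 0.0593) were lost.

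SNAI2 was also the only one of the 9 genes that passed between HaCaT-vector and HaCaT, where it was lower by 0.75 in the vector line (-0.75 ± 0.19 SE, adjusted p = 0.0195). That call was lost without HaCaT replicate 2 (-0.56, adjusted p = 0.216), without HaCaT-vector replicate 2 (-0.68, adjusted p = 0.12) or without HaCaT-vector replicate 3 (-0.67, adjusted p = 0.141), and in a fit of these lines alone (adjusted p = 0.375). SNAI1, the other Snail factor, ran from 3.51 to 4.86 over all 58 arrays, below the array medians of 4.98 to 5.24. ZEB1, a zinc-finger and homeodomain factor, ran from 4.02 to 5.40. At these probe sets neither passed in any of the 22 comparisons, and their condition means spanned 0.64 (SNAI1) and 0.56 (ZEB1). ZEB1 had 3 further probe sets, and 1 of these varied more, from 3.51 to 6.11. It ran from 4.74 to 6.11 in HaCaT-p65 and from 4.05 to 4.66 in HaCaT-EGFR in serum without overlap, a rise by 1.07 (adjusted p = 0.0284 over all probe sets, 5.84% of which passed), and it passed in no other comparison. No detection call was among the values used, so it cannot be said here whether either transcript was present.

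FN1, which encodes the matrix glycoprotein fibronectin, was the second gene to separate the lines. It read 9.48, 9.94 and 10.35 in HaCaT-HRAS, 9.08, 9.50 and 9.68 in HaCaT-p65, 7.75, 7.77 and 7.46 in HaCaT-vector and 7.31, 8.22 and 8.50 in HaCaT. The 5 HaCaT-EGFR arrays gave 8.92, 9.14 and 8.72 at 0 h, 8.97 at 4 h and 8.89 at 8 h. All arrays of the 3 lines with an added signalling gene were above all arrays of HaCaT and HaCaT-vector, and HaCaT-HRAS overlapped HaCaT-p65.

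Over HaCaT-vector, FN1 rose by 2.27 ± 0.29 (SE) in HaCaT-HRAS (4.81-fold, adjusted p = 5.65e-08), by 1.76 in HaCaT-p65 (adjusted p = 2.54e-05) and by 1.27 in HaCaT-EGFR (adjusted p = 0.0021). These comparisons share the 3 HaCaT-vector arrays. Over HaCaT the differences were 1.91 (adjusted p = 2e-06), 1.41 (adjusted p = 0.000868) and 0.92 (adjusted p = 0.063), and the call for HaCaT-p65 over HaCaT was lost when those lines were fitted alone (adjusted p = 0.148). In descending order the means were 9.92 in HaCaT-HRAS, 9.42 in HaCaT-p65, 8.93 in HaCaT-EGFR, 8.01 in HaCaT and 7.66 in HaCaT-vector, and no pair of neighbours passed (adjusted p = 0.26, 0.41, 0.063 and 0.81). HaCaT-HRAS over HaCaT-EGFR passed (1.00, adjusted p = 0.0096) but not without HaCaT-HRAS replicate 3 (0.78, adjusted p = 0.0916) or HaCaT-EGFR replicate 3 (0.89, adjusted p = 0.0536).

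FN1 had 7 probe sets. Of these 4 passed between HaCaT-HRAS and HaCaT-vector, with differences of 2.27, 2.19, 2.27 and 2.22. The remaining 3 differed by 0.75, 0.19 and 0.34 and did not pass in the adjustment over all probe sets, of which 12.1% passed in this comparison. The same 4 also passed in HaCaT-EGFR over HaCaT-vector (1.19 to 1.27, with 4.98% of probe sets passing) and in HaCaT-p65 over HaCaT-vector (1.66 to 1.76, with 3.96% passing).

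**Figure D2:**
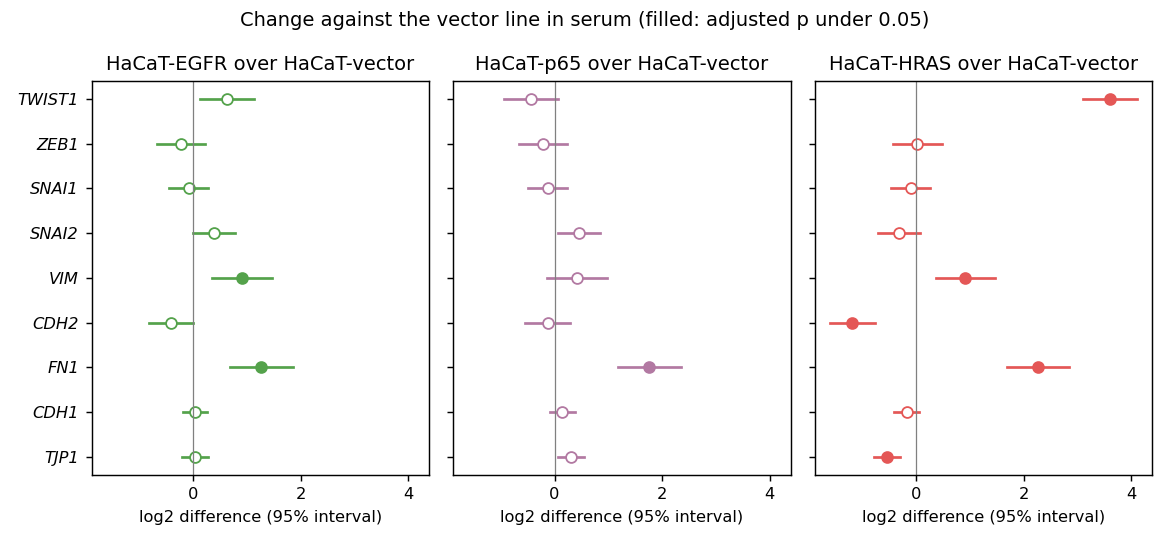
Log2 difference of each gene (rows) from HaCaT-vector in serum with its 95% interval, for HaCaT-EGFR, HaCaT-p65 and HaCaT-HRAS, with filled points where the adjusted p was under 0.05. FN1 passes in each panel, at 1.27, 1.76 and 2.27, and the panels share the same 3 HaCaT-vector arrays.

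VIM, the type III intermediate filament of mesenchymal cells, varied more between replicates. It read 5.71, 6.17 and 6.41 in HaCaT-HRAS, 5.31, 5.08 and 5.17 in HaCaT-vector, 5.41, 6.62 and 5.89 in HaCaT and 5.95, 5.80 and 5.06 in HaCaT-p65. HaCaT-EGFR gave 6.07, 5.88 and 6.34 at 0 h, 6.14 at 4 h and 6.05 at 8 h. HaCaT-HRAS and HaCaT-EGFR were each above every HaCaT-vector array and within the range of HaCaT.

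VIM rose over HaCaT-vector by 0.91 ± 0.27 (SE) in HaCaT-HRAS (adjusted p = 0.0135) and by 0.91 in HaCaT-EGFR (adjusted p = 0.0283). The first call was lost without HaCaT-vector replicate 2 (0.86, adjusted p = 0.053) or HaCaT-HRAS replicate 3 (0.76, adjusted p = 0.0965). The second was lost when any 1 of the 3 HaCaT-vector arrays (0.97, 0.86 and 0.90 without replicates 1, 2 and 3) or HaCaT-EGFR replicate 1 (0.92) or 3 (0.79) was left out, and with the mean of both VIM probe sets (0.45, adjusted p = 0.0537). Over HaCaT the differences were 0.12 in HaCaT-HRAS (95% interval -0.43 to 0.68) and 0.12 in HaCaT-EGFR (-0.43 to 0.67). The HaCaT-vector mean (5.18) lay within the array medians of 4.98 to 5.24, so the sizes of the rises over that line are uncertain.

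CDH2 and TJP1 were lower in HaCaT-HRAS than in each other line. CDH2, the cadherin of neural and mesenchymal junctions that HaCaT cells also carry, read 9.65, 9.78 and 9.80 in HaCaT-HRAS and 10.26 to 10.99 on the 14 other serum arrays, with no overlap. It fell by 1.19 ± 0.21 (SE) against HaCaT-vector (adjusted p = 2.06e-05), by 0.94 against HaCaT, by 0.77 against HaCaT-EGFR and by 1.06 against HaCaT-p65. Its second probe set passed against HaCaT-vector (-0.90) and HaCaT (-0.66) and not against HaCaT-EGFR or HaCaT-p65. Thus TWIST1 and FN1 rose in HaCaT-HRAS while CDH2, which is listed beside them as a gene of the mesenchymal state, fell.

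TJP1, whose ZO-1 protein links tight junctions to actin, read 10.78, 10.70 and 10.96 in HaCaT-HRAS against 11.32, 11.26 and 11.49 in HaCaT-vector and 11.24, 11.88 and 11.72 in HaCaT. No HaCaT-HRAS array reached any array of another line. TJP1 fell by 0.54 ± 0.12 (SE) against HaCaT-vector (to 68.6% of its level, adjusted p = 0.000588), by 0.80 against HaCaT, by 0.58 against HaCaT-EGFR and by 0.85 against HaCaT-p65. The second TJP1 probe set gave -0.68 against HaCaT-vector and passed.

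CDH1, the adhesive cadherin of epithelial junctions, hardly separated the lines. It read 11.77, 11.88 and 11.93 in HaCaT-HRAS, 11.99, 12.00 and 12.11 in HaCaT-vector and 11.85, 11.81 and 11.87 in HaCaT. The HaCaT-HRAS arrays lay below those of HaCaT-vector and overlapped those of HaCaT. The difference of HaCaT-HRAS from HaCaT-vector was -0.17 (95% interval -0.41 to 0.06) and from HaCaT 0.01 (-0.22 to 0.24). Only HaCaT-HRAS against HaCaT-p65 passed, with a fall by 0.32 (adjusted p = 0.0377) that was lost without any of 4 of the 6 arrays (HaCaT-HRAS replicate 1 or 2, HaCaT-p65 replicate 2 or 3, -0.34 to -0.24), with the mean of both CDH1 probe sets (-0.20, adjusted p = 0.447) and in a fit of the compared lines alone (adjusted p = 0.114).

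Counted over the set, 5 of the 9 genes passed for HaCaT-HRAS over HaCaT-vector, where 18.2% of all genes did. The count was also 5 over HaCaT (17.7% of all genes), over HaCaT-EGFR (19.4%) and over HaCaT-p65 (20.8%). For HaCaT-p65, 1 of 9 passed over HaCaT-vector (7.18%), 2 over HaCaT (5.94%) and 1 over HaCaT-EGFR (9.78%). For HaCaT-EGFR, 2 passed over HaCaT-vector (7.87%) and 0 over HaCaT (3.88%), and 1 passed for HaCaT-vector over HaCaT (2.87%). The median difference of the 9 in HaCaT-HRAS over HaCaT-vector was -0.10 against -0.04 for all genes, and 3 rose and 2 fell. Since the 9 were chosen with earlier results of these data known, the counts are a description only.

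EGF raised TWIST1 in HaCaT-EGFR. The 7 starved arrays ran from 5.09 to 6.24 with a median of 5.62, and the 7 arrays with EGF ran from 6.14 to 6.89 with a median of 6.35. Of the starved arrays 1, at 8 h, lay above the lowest EGF arrays, and the rest lay below all of them. The rise was 0.74 ± 0.16 (SE), or 1.67-fold (adjusted p = 0.00218), and it was 0.87, 0.75 and 0.64 within the 3 dates that held both conditions. At 4 h it was 0.71 (adjusted p = 0.0174) and at 8 h 0.81 (adjusted p = 0.283, from 2 arrays on each side). TWIST1 was the 1 of 9 that passed, where 8.8% of all genes did.

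In HaCaT-vector TWIST1 read 4.85, 4.82, 5.04 and 4.93 without ligand and 5.45, 5.16, 5.14 and 5.22 with EGF at 4 h. Every array with EGF was above every starved array. The difference was 0.34 (95% interval -0.11 to 0.78, adjusted p = 0.78), and 0 of the 9 genes passed, where 1.01% of all genes did. The difference between the responses of the lines was 0.40 for TWIST1 (95% interval -0.15 to 0.95). No gene of the 9 and 0% of all 19775 passed that test in limma. At an unadjusted p under 0.05 there were 343 genes, fewer than chance alone gives on average.

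The remaining genes did not pass with EGF. CDH1 came nearest in HaCaT-EGFR, with 0.22 (95% interval 0.07 to 0.37, adjusted p = 0.061), and it passed when only genes of mean 5 or more were tested (adjusted p = 0.036), without a date term (adjusted p = 0.0323) and without either of the starved arrays numbered 1 at 8 h on 1 date and 4 h on another (0.27, adjusted p = 0.0151, and 0.28, adjusted p = 0.0128). TJP1 gave 0.15 at its main probe set (adjusted p = 0.29) and 0.59 at its second one, which passed over all probe sets (adjusted p = 0.00059, with 5.09% of them passing), and the mean of both gave 0.37 (adjusted p = 0.000712), so the probe sets of this gene did not give 1 answer. VIM differed by 0.24 in HaCaT-EGFR and -0.47 in HaCaT-vector, and the difference between these was 0.71 (95% interval 0.10 to 1.32, adjusted p = 1).

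None of the 9 passed with TNF. In HaCaT-p65, TWIST1 read 3.40, 4.18 and 4.44 starved and 4.55, 4.49, 4.39, 4.13 and 4.63 with TNF, and the groups overlapped. The difference was 0.43 (95% interval -0.02 to 0.89, adjusted p = 0.31), with 0.73 on 1 date and -0.05 on the other. In HaCaT-vector TNF gave 4.68, 5.26 and 5.07, a difference of 0.09 from starvation (95% interval -0.41 to 0.59). Among all genes 2.03% passed in HaCaT-p65 and 0.905% in HaCaT-vector, and 0 of the 9 in either. For the difference between the lines 0.0101% of genes passed and none of the 9. One of the HaCaT-p65 TNF arrays is titled TNF but is described once as a control in the study's sample sheet. Without it the counts stayed at 0.

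Serum against starvation in HaCaT-EGFR also gave 0 of 9, where 3.25% of all genes passed. VIM had the largest difference, with 6.07, 5.88, 6.34, 6.14 and 6.05 in serum and 4.92 to 5.82 (median 5.41) starved. All serum arrays were above all starved arrays, by 0.71 in the means (95% interval 0.13 to 1.30, adjusted p = 0.18), and the call passed only without a date term (adjusted p = 0.00357). CDH1 differed by 0.35 (adjusted p = 0.11), passing without a date term (adjusted p = 0.000715) and without starved replicate 1 of 4 h on the last date (0.44, adjusted p = 0.0355).

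FN1 had its lowest values of the study in HaCaT-vector outside serum, and VIM in HaCaT-vector cells that were starved or given a ligand alone. FN1 read 6.14, 6.01, 6.15 and 6.11 in starved HaCaT-vector, 6.58, 6.30, 6.43 and 6.42 with EGF and 6.50, 6.25 and 6.46 with TNF. Starved HaCaT-EGFR gave 7.84 to 9.43 (median 8.85) and starved HaCaT-p65 gave 8.70, 8.70 and 8.82. No array of starved HaCaT-vector came within 1 log2 unit of these lines.

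VIM read 4.21, 4.00, 4.12 and 4.59 in starved HaCaT-vector, 4.92 to 5.82 in starved HaCaT-EGFR and 5.85, 4.90 and 4.91 in starved HaCaT-p65. With EGF the HaCaT-vector arrays gave 3.51, 4.08, 4.06 and 3.40. The starved HaCaT-vector and HaCaT-EGFR arrays share 1 date, on which FN1 read 6.11 against 7.84, 8.93 and 9.43 and VIM 4.59 against 5.42, 5.46 and 5.41. Serum and starved arrays of HaCaT-vector share none, and contrasts between these lines when starved or between media in HaCaT-vector were not among those tested.

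**Figure D3:**
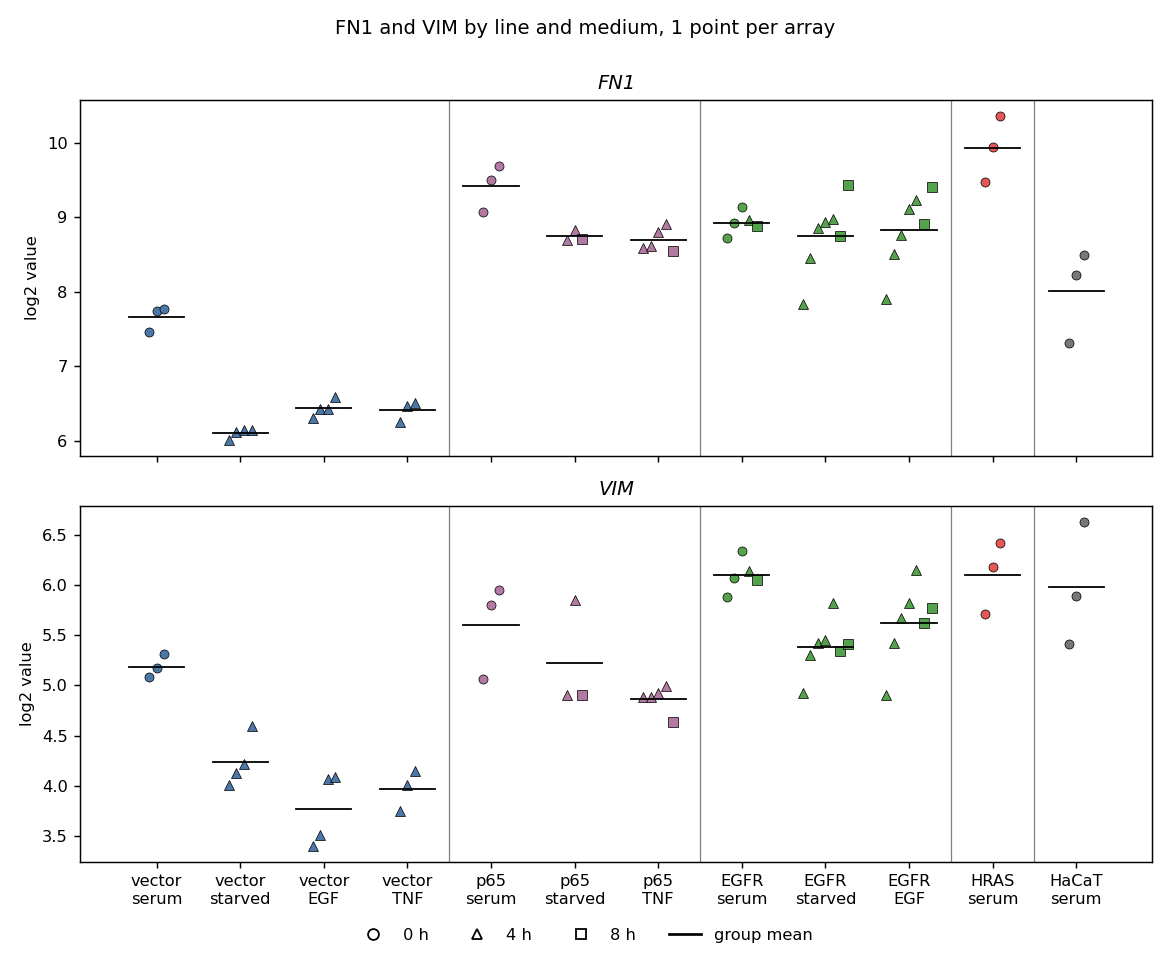
Log2 values of FN1 (top) and VIM (bottom) by line and medium, 1 point per array with a line at the group mean, circles for 0 h, triangles for 4 h and squares for 8 h. Starved, EGF and TNF arrays of HaCaT-vector lie at 6.01 to 6.58 for FN1, below every array of the other lines.

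TWIST1 was lower with both inhibitors that were added to EGF in both lines. With LY294002 it read 4.74 in HaCaT-EGFR and 4.63 in HaCaT-vector, and with U1026 it read 4.49 and 3.90. On the same date EGF alone gave 6.22 and 6.35 at 4 h and 6.42 at 8 h in HaCaT-EGFR, and 5.22 in HaCaT-vector. Each array with an inhibitor was below every EGF array of its line, and below the array medians of 4.98 to 5.24.

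Averaged over both lines, TWIST1 fell by 1.62 ± 0.26 (SE) with U1026 (to 32.6% of its level, adjusted p = 0.000141) and by 1.12 with LY294002 (to 45.9%, adjusted p = 0.0196). On the shared date at 4 h the differences were -1.80 in HaCaT-EGFR and -1.33 in HaCaT-vector for U1026, and -1.54 and -0.59 for LY294002. Each inhibitor stood on 1 array a line, so the spread came from the other groups, and the 8 h EGF arrays of HaCaT-EGFR entered the mean that these 4 h arrays were set against. The LY294002 call was lost without the HaCaT-vector EGF array of that date (adjusted p = 0.134) and when the compared groups were fitted alone (-1.09, adjusted p = 0.241).

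SNAI2 went the other way with U1026. It read 9.52 in HaCaT-EGFR and 9.54 in HaCaT-vector, against 8.95, 9.03 and 9.34 and against 8.36 with EGF alone on that date. Both arrays were above every EGF array of their line. The rise was 0.78 ± 0.20 (SE, adjusted p = 0.0218), and it did not pass without the HaCaT-vector EGF array of that date (0.73, adjusted p = 0.159) or with the compared groups fitted alone (0.80, adjusted p = 0.0732). With LY294002 SNAI2 read 8.66 and 8.52, a difference of -0.16 (95% interval -0.57 to 0.25). Of the 9 genes 2 passed with U1026 (3.02% of all genes) and 1 with LY294002 (0.693%).

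VIM did not pass with either inhibitor (0.31 with LY294002 and 0.33 with U1026, averaged over the lines), and the lines differed in sign. In HaCaT-vector VIM read 4.76 with LY294002 and 4.87 with U1026, above all 4 EGF arrays (3.40 to 4.08). In HaCaT-EGFR it read 5.24 and 5.18, within the 7 EGF arrays (4.90 to 6.14). Against EGF at 4 h on the same date the differences were 1.36 and 1.47 in HaCaT-vector and -0.31 and -0.37 in HaCaT-EGFR. With 1 array a line the difference between the lines was not tested. CDH1 differed by 0.33 with LY294002 (95% interval 0.09 to 0.57, adjusted p = 0.236) and by 0.27 with U1026 (0.04 to 0.51, adjusted p = 0.245).

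**Figure D4:**
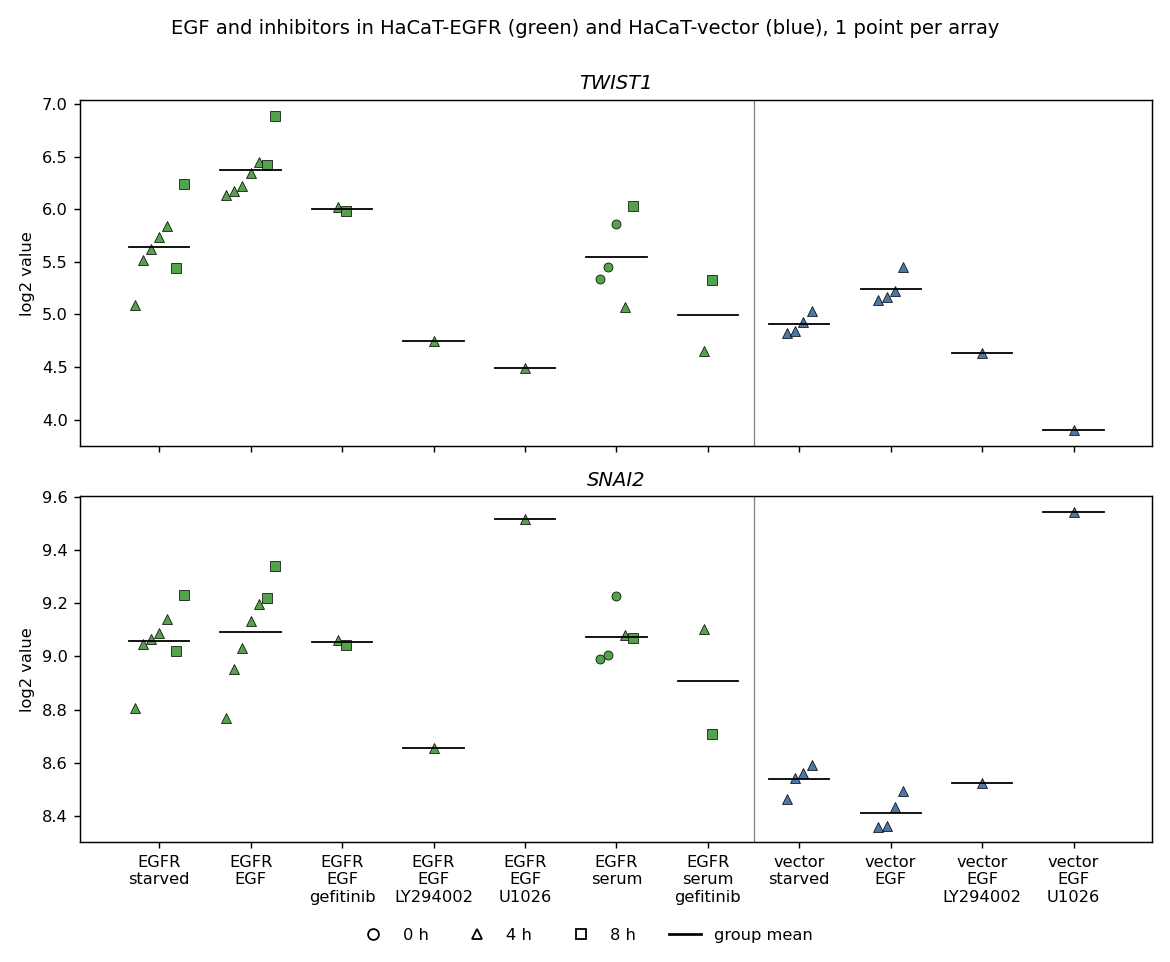
Log2 values of TWIST1 (top) and SNAI2 (bottom) in HaCaT-EGFR (green) and HaCaT-vector (blue) by medium, ligand and inhibitor, 1 point per array with a line at the group mean, circles for 0 h, triangles for 4 h and squares for 8 h. With U1026, TWIST1 is at 4.49 and 3.90 and SNAI2 at 9.52 and 9.54.

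With gefitinib none of the 9 passed. TWIST1 read 6.03 and 5.99 with EGF and gefitinib, below each EGF array of HaCaT-EGFR, and 4.66 and 5.32 with serum and gefitinib. The first differed from EGF by -0.37 (95% interval -0.89 to 0.15) and from starvation by 0.37 (-0.16 to 0.89), and the second differed from serum by -0.56 (-1.17 to 0.05). Among all genes 1.81%, 0% and 1.79% passed in these comparisons. In the middle one 816 genes had an unadjusted p under 0.05 in limma, fewer than chance alone gives on average. The intervals do not show that TWIST1 stayed the same.

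The wider programme in HaCaT-HRAS over HaCaT-vector was mixed, in a comparison where 18.2% of all genes passed. Of 11 other transcription factors of the transition 3 rose and 1 fell (median 0.16, against -0.04 over all genes): TWIST2, the closest relative of TWIST1, rose by 2.01 (adjusted p = 7.32e-09), the chromatin protein HMGA2 by 0.86 and the E-protein TCF4 by 0.84, and KLF8 fell by 0.69. ZEB2 read 3.70 against 3.81 and did not pass. Of 9 regulators that hold the epithelial state 0 rose and 2 fell (median -0.09), namely OVOL1, a repressor of the ZEB factors (-0.86), and KLF4, a factor of epidermal barrier formation (-0.61), a share near that of all genes. Over HaCaT, where 17.7% of all genes passed, 3 factors rose, TWIST2, PRRX1 and TCF4, and 0 fell. HMGA2 did not pass over HaCaT. Of the 9 regulators 1 rose over HaCaT, ELF3 by 1.76, and 1 fell, OVOL1.

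Among 13 other junction genes 1 passed, CTNNA1, the alpha-catenin that ties cadherins to actin, which rose by 0.50 (median -0.09). Over HaCaT 3 of these rose, CTNNA1 by 0.52, CGN by 0.56 and CLDN7 by 0.48, and CLDN1 fell by 0.43, and over HaCaT-p65 3 rose and 2 fell (20.8% of all genes). Of 19 mesenchymal effectors 4 rose and 2 fell over HaCaT-vector (median -0.01, 18.2% of all genes passing), and over HaCaT the balance turned, with 3 up and 5 down (median -0.18). Against HaCaT-vector the matrix proteins TNC and SPARC fell by 1.88 and 1.50, and the secreted FSTL1 and the calcium-binding S100A4 rose by 1.22 and 0.97. In the TGF-beta pathway 3 of 12 rose against that line and 2 fell (median -0.03). The co-receptor TGFBR3 rose by 2.31 and the transducer SMAD3 by 0.64, while the inhibitor SMAD7 and the receptor TGFBR1 fell by 1.00 and 0.63.

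**Figure D5:**
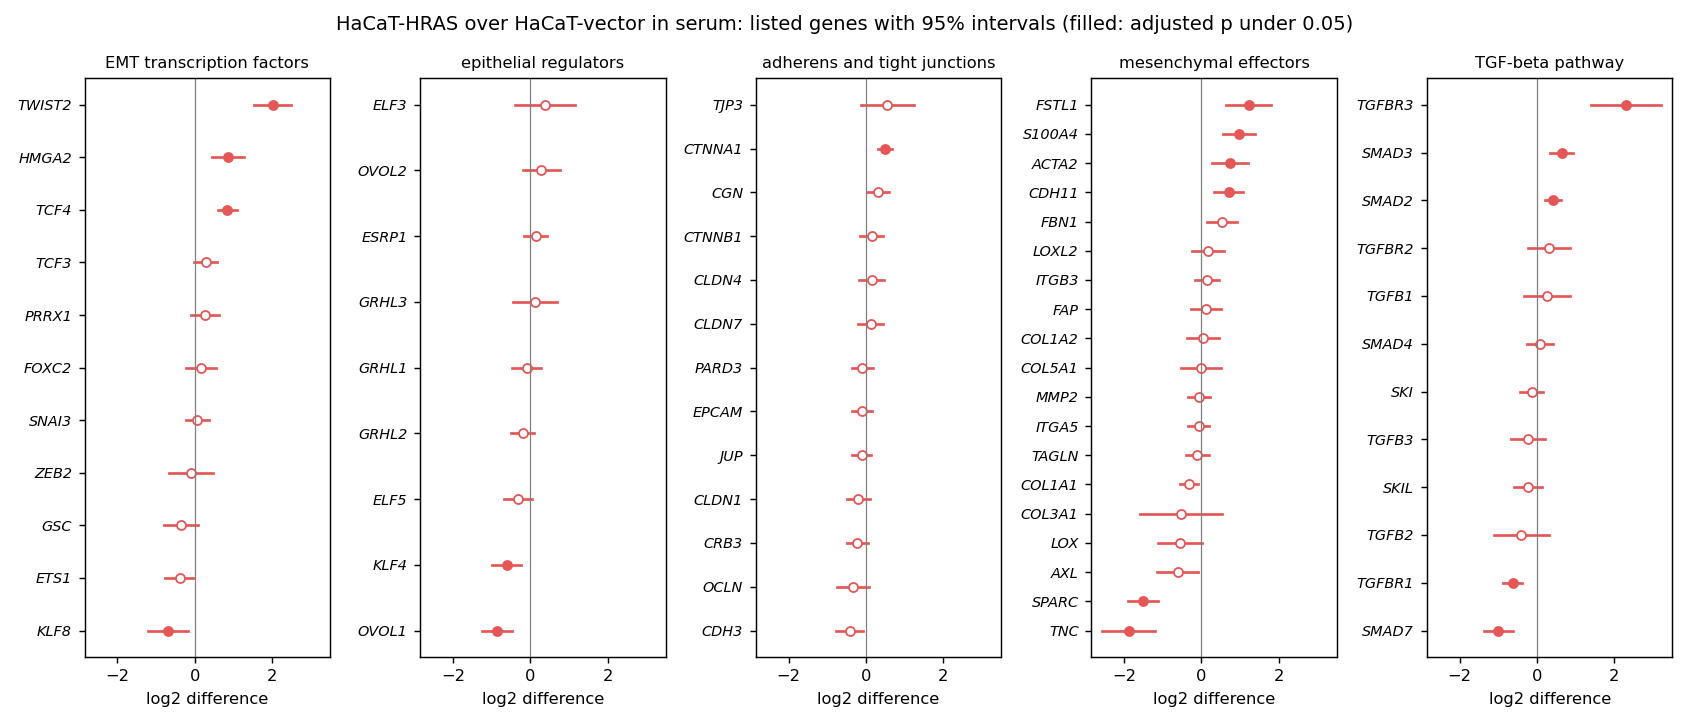
Log2 difference of HaCaT-HRAS from HaCaT-vector in serum with its 95% interval for the measured genes of 5 lists (rows, sorted), with filled points where the adjusted p was under 0.05. TWIST2 at 2.01 and TGFBR3 at 2.31 lie farthest to the right, TNC at -1.88 farthest to the left, and each list holds genes on both sides of 0.

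Markers of cell types moved with the HaCaT-HRAS line too. Of 7 measured keratinocyte markers 5 fell against HaCaT-vector (18.2% of all genes passed there), among them the basal keratin KRT14 by 2.33, KRT16 by 1.26, SFN by 0.89 and DSG3 by 0.68, and the mean over the 7 ran from 9.96 to 10.18 in HaCaT-HRAS and was at least 10.79 on each HaCaT-vector array (group mean 10.92). Of 10 fibroblast markers 0 passed, with 6 under the array median in both lines. CDH5, the endothelial cadherin, rose by 4.29 as 1 of 5 endothelial markers, and LYZ rose by 1.89 as 1 of 4 leukocyte markers. In HaCaT-p65 over HaCaT-vector (7.18% of all genes) the fibroblast marker LUM rose by 5.37 as 1 of 10, and KRT16 fell as 1 of 7 keratinocyte markers. LUM itself passed as lower in HaCaT-vector than in HaCaT (2.87% of all genes). Its means in serum were 10.03 in HaCaT-p65, 7.89 in HaCaT and 4.66 in HaCaT-vector. The part of these markers in the changes of TWIST1, FN1, CDH2 and TJP1 was not tested.

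TWIST2 also differed between the control lines: HaCaT-vector had a mean of 5.36 and HaCaT one of 4.07, a rise by 1.29 (adjusted p = 0.00038). Over HaCaT-vector TWIST2 fell by 1.78 in HaCaT-p65 (adjusted p = 5.29e-07) and by 1.11 in HaCaT-EGFR (adjusted p = 0.000886), but over HaCaT the differences were -0.48 (adjusted p = 0.29) and 0.18 (adjusted p = 0.873). In HaCaT-HRAS TWIST2 rose over HaCaT too, by 3.31 (adjusted p = 1.22e-14). Of the 11 factors 1 rose and 2 fell in HaCaT-p65 (median 0.05, against 0.00 over all genes) and 3 rose and 2 fell in HaCaT-EGFR (median 0.02, against 0.00), where 7.18% and 7.87% of all genes passed. HMGA2 rose in both over HaCaT-vector, by 0.90 and 0.78, but it passed over HaCaT in neither. Of the 19 effectors 2 rose and 3 fell in HaCaT-p65 (median -0.03), with LOX, the collagen cross-linking oxidase, up by 1.32 and TNC down by 2.03, and 2 rose and 4 fell in HaCaT-EGFR (median 0.01), with COL3A1 up by 2.24 and LOXL2 down by 1.80.

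In EGF over starvation in HaCaT-EGFR, where 8.8% of all genes passed, 8 genes of the 5 lists passed beside TWIST1. HMGA2 rose by 0.83 and ETS1 by 0.66 and TCF4 fell by 0.47 among the 11 factors (median 0.02, against -0.01 over all genes). ELF3 and GRHL2, factors of epithelial differentiation, fell by 1.29 and 0.65, 2 of 9 regulators (median -0.10), and 0 of 13 junction genes passed. TGFB1 rose by 0.88 and SMAD3 by 0.35 among 12 TGF-beta genes (median 0.09), and 1 of 19 effectors rose, the integrin ITGA5 by 0.42 (median -0.02). In HaCaT-vector EGF raised HMGA2 by 1.08 and ITGA5 by 0.48 and nothing else of these 5 lists (1.01% of all genes).

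The comparisons with inhibitors share the EGF arrays with the comparison of EGF over starvation, so their values stand side by side only. U1026 lowered HMGA2 by 1.18 and raised ELF3 by 1.58, GRHL3 by 1.06 and GRHL2 by 0.83, which made 3 of 9 epithelial regulators (median 0.23, against 0.01 over all genes, of which 3.02% passed). SKIL also rose with U1026, as 1 of 12 TGF-beta genes. Gefitinib in serum lowered HMGA2 by 1.43 and raised ELF3 by 2.22, GRHL3 by 1.99 and GRHL2 by 0.95 (median of the 9 regulators 0.47, against -0.01 over all genes, of which 1.79% passed). TGFBR2 fell there, as 1 of 12 TGF-beta genes. Gefitinib with EGF raised ELF3 by 1.65, and HMGA2 differed by -0.67 (adjusted p = 0.105). With LY294002, on 1 array a line, none of the genes of the 5 lists passed, where 0.693% of all genes did. TNF raised ITGA5 by 0.62 in HaCaT-p65 and 0.85 in HaCaT-vector, ETS1 by 0.88 in HaCaT-p65 and SMAD3 by 0.87 in HaCaT-vector, and lowered GRHL2 by 0.49 in HaCaT-p65. In serum over starvation in HaCaT-EGFR (3.25% of all genes), OCLN, CGN, ITGA5 and SKIL rose and GRHL2 fell. TCF4 and ETS1 passed there in opposite directions.

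Over the 18 condition means, 5 of the 9 genes spanned at least 1 log2 unit. The genes most like each, among 5767 genes of that span, are given by Pearson's r over the 18 means as a description, since conditions share dates and lines. TWIST1 was nearest to HOXB6 (0.912), CEACAM5 (0.906) and FOXE1 (0.903), FN1 to SULF2 (0.966), MESD (0.954) and GDAP1 (0.951), and VIM to BCL2 (0.926), HDAC4 (0.889) and TRAM2 (0.888). CDH2 was nearest to RFLNB (0.92), GLI3 (0.918) and HSF2BP (0.916), and SNAI2 to HOMER2 (0.758), HMGN3-AS1 (0.758) and C22orf23 (0.742). Within the set, the highest r was 0.827 (VIM and FN1) and the lowest -0.699 (TWIST1 and TJP1), and TWIST1 and CDH2 had r = -0.615. The TWIST1 mean was 8.53 in HaCaT-HRAS and at most 6.38 in the other conditions, so that 1 condition weighs heavily in its r.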

How the data were processed

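RNA of 58 samples of 5 HaCaT lines was hybridised to Affymetrix U133 Plus 2.0 arrays. The deposited values are on the log2 scale: the authors summarised each probe set with fRMA, fitted condition and processing date with limma, and subtracted the date coefficients. The number of arrays limits the precision. No arrays held identical values.

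Here 18 conditions and 6 dates were fitted again in limma 3.58.1 (R 4.3.3), leaving 35 residual degrees of freedom. The largest date coefficient was 1.2e-08. Keeping the date terms counts the degrees of freedom they used and carries the partial overlap of conditions and dates into the standard errors. Moderated tests (eBayes) were adjusted over 19775 genes by the Benjamini-Hochberg method in each of 22 comparisons, with a threshold of 0.05. Of 54675 probe sets 1801 had several gene symbols and 11777 none in the annotation used, and these named no gene. Among the others, the one of highest mean over the arrays stood for its gene. Single probe sets were adjusted over all 54675.

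The 9 genes and the gene lists were chosen with earlier results of these data known. Of each list at most 4 genes a comparison are named, those of largest change that passed. Also named are the 3 genes most alike to each of the 9 that spanned at least 1 log2 unit. TWIST2, ZEB2, HMGA2, KRT14 and LUM were also given where they did not pass or as levels, chosen after their values were seen. Groups came from the labels. Deviations of arrays with the same replicate number correlated above 0.1 in all 3 pairs for HaCaT-HRAS over HaCaT-vector (0.191 to 0.527), HaCaT-HRAS over HaCaT-EGFR (0.191 to 0.49) and HaCaT-EGFR over HaCaT-vector (0.216 to 0.529), and in no other comparison of 3 or more pairs. Alternatives were no date term, centring on array medians, a mean of at least 5, the mean of all probe sets, a replicate block, the compared groups alone, times apart and each array left out. HaCaT-EGFR serum arrays were also used as 0 h alone or as 4 h and 8 h alone, and the TNF array described once as a control was left out. The fit was tested on simulated data.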

Additional observations from a re-analysis of the deposited data

Results flagged for a closer look

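In 3 of 54 sets of values (a gene in a group of 4 to 10 arrays), 1 array stood apart from the rest by the size of its gap to the nearest array relative to the group's range. Chance alone puts about 1 in 20 such sets past that limit. All 3 were in HaCaT-EGFR with EGF. TWIST1 was at 6.89 in replicate 1 of 8 h on the second date, against 6.14 to 6.45 in the others. CDH1 was at 12.13 in replicate 1 of 4 h on date 6, against 11.89 to 11.95, and ZEB1 was at 4.30 on the same array, against 4.58 to 4.74. FN1 had its lowest value of the group there, at 7.91.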

How the results depend on the processing

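The 31 calls were repeated 196 times under the alternatives other than leaving out each array in turn, some with fewer arrays. Of these repeats 187 stayed past the threshold, 9 did not and 0 changed direction. Without a date term or at a mean of at least 5 the differences themselves did not change, and all 31 calls stayed in each. With the compared groups alone 25 of 31 stayed. With 1 array left out, 203 of 225 stayed, 22 did not and 0 changed direction. Without a date term the number of the 9 genes that passed went to 1 for HaCaT-EGFR over HaCaT (FN1), to 2 for EGF in HaCaT-EGFR and to 2 for serum over starvation, and CDH1 in HaCaT-p65 over HaCaT (adjusted p = 0.0408) and TWIST1 in HaCaT-EGFR over HaCaT-vector (adjusted p = 0.0332) passed in addition. At a mean of at least 5, where ZEB1 and SNAI1 dropped out, it was 1 and 2 in the first pair, and CDH1 in HaCaT-p65 over HaCaT passed in addition (adjusted p = 0.0485). With the mean of all probe sets it was 2 for EGF in HaCaT-EGFR and 1 for HaCaT-EGFR over HaCaT-vector. With the compared groups alone it was 0 for HaCaT-p65 over HaCaT, 0 for HaCaT-vector over HaCaT, 0 for LY294002 and 1 for U1026, and with 8 h alone 0 for EGF in HaCaT-EGFR. With the compared groups alone fewer arrays gave the spread, and with 8 h alone fewer arrays gave the compared means. Without a date term the residual degrees of freedom differed, and so could the standard errors, since conditions and dates overlapped only in part. With the date term TWIST1 had an SE of 0.246 for HaCaT-EGFR over HaCaT and for HaCaT-HRAS over HaCaT. The first of these used 5 arrays of the line with the added gene and the second 3. At a mean of at least 5 the set of tested genes differed. For the mean of all probe sets the cause was not tested.

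With the replicate block FN1 passed for HaCaT-EGFR over HaCaT (0.92, adjusted p = 0.0498), a count of 1, and no other call changed. There the numbers were not shown to pair the arrays.

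With each array left out in turn the counts ran from 1 to 2 for HaCaT-p65 over HaCaT, 0 to 1 for HaCaT-EGFR over HaCaT, 0 to 3 for HaCaT-vector over HaCaT, 1 to 2 for HaCaT-EGFR over HaCaT-vector, 3 to 5 for HaCaT-HRAS over HaCaT-EGFR, 0 to 1 for serum over starvation, 1 to 2 for EGF in HaCaT-EGFR, 0 to 1 for LY294002 and 1 to 2 for U1026. HaCaT replicate 1 decided the top of the third range: without it VIM (-1.07) and TJP1 (-0.44) also passed. The single arrays with LY294002 or U1026 could not be left out. ZEB1 and SNAI1 lay near or below the array medians, so small differences in them could not be seen. TWIST1 in HaCaT-vector and HaCaT-p65, and VIM in HaCaT-vector both in serum and outside it, also lay near or below these medians. The sizes of their changes there are uncertain.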
